A study of Mus musculus with 24 samples.

Results

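The transcriptomes of naive B cells from mice without SpiB in which Spi1, the PU.1 gene, was also targeted for deletion (PU.1 SpiB DKO) were compared with those of naive B cells from mice without SpiB alone (SpiB KO). The study describes the deletion as incomplete in DKO follicular cells, so DKO names a genotype here and not a full loss of PU.1. The members were the genes with at least 0.5 CPM (read counts scaled to library size) in 2 or more of the 4 libraries, 12209 of the 27179 genes counted. The study sequenced mRNA from 24 libraries, with 4 genotypes in each of 3 states of lymph node B cells from adult C57BL/6 mice and 2 biological replicates per genotype and state. The states were naive cells and 2 cultures of 48 h, one activated by LPS + IL-4 and the other by CD40L + IL-4. SpiB KO mice were Spi1fl/fl Cd23+/+ Spib-/-, so they carried the floxed Spi1 alleles but no Cre, and PU.1 SpiB DKO mice were Spi1fl/fl Cd23T/+ Spib-/-. Both groups therefore lacked SpiB and shared the floxed Spi1 alleles, and they differed in the Cd23-Cre transgene and the PU.1 deletion it brings about. These features cannot be told apart in this comparison. The other naive genotypes were control (Cd23T/+) and PU.1 cKO (Spi1fl/fl Cd23T/+), which carry Spib. Control and PU.1 cKO both carry Cre and differ in the floxed alleles, whereas SpiB KO and DKO share the floxed alleles and differ in Cre, so the 2 naive comparisons are not matched in design. The Cre is driven by Cd23 (Fcer2a) regulatory sequences from a BAC transgene and becomes active at the transitional B cell stage. The sort kept B220+ cells without CD3 or CD138, and the 4 libraries held 16094209 to 18194629 counts.

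PU.1 (encoded by Spi1) and SpiB (encoded by Spib) are related ETS-family transcription factors that recognise DNA with a GGAA core. Both are present in mature B cells and share many binding sites, so that one can occupy sites left by the other. Known B cell targets include the low-affinity IgE receptor, signalling proteins of the B cell receptor and the 3′ enhancer of the immunoglobulin kappa light chain locus, where PU.1 binds with IRF4.

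The targeted transcripts were examined first. Spi1 (Entrez 20375, chromosome 2, 91082374 to 91115759 in GRCm38.p6) stood at 163 CPM in both SpiB KO libraries and at 102 and 110 CPM in the 2 DKO libraries. On the log2 scale DKO minus SpiB KO was -0.62 (SE 0.11, adjusted p = 0.0241 by edgeR). Reads were counted over whole genes, so transcripts with and without the floxed exon were not separated. Spi1 passed only without DKO replicate 2 when 1 of the 4 libraries was left out, with adjusted p up to 0.174. The ratio of mean Spi1 levels was 0.652 for DKO to SpiB KO and 0.343 for PU.1 cKO to control, where the log2 difference was -1.54, and the difference between both comparisons passed for Spi1 (0.93, adjusted p = 0.051). Spib read 85.5 and 80.1 CPM in SpiB KO and 98.7 and 100.2 CPM in DKO (0.26, adjusted p = 0.388), against 1472 and 1356 CPM in control.

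Mybpc3, a cardiac sarcomere protein gene that begins 2.35 kb beyond the end of Spi1, followed the Cre-positive floxed genotypes. It read 0.297 and 0.646 CPM in SpiB KO and 265 and 335 CPM in DKO, from 17 and 10674 counts summed per group, a ratio of 630 in pooled CPM. Its log2 fold change was 9.27 (standard error 0.25, adjusted p = 1.45e-07), and it was 11.73 in PU.1 cKO. Of the 20 other genes tested within 500 kb of Spi1, 1 was differentially expressed (DE), and that was Mybpc3. None of the 15 genes within 500 kb of Fcer2a and none of the 35 around Spib were DE.

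A gene was called DE at a Benjamini-Hochberg adjusted p below 0.15 and a fold change above 1.5, with edgeR's quasi-likelihood test. By this rule 376 of 12209 genes (3.08%) were DE between DKO and SpiB KO. Of these, 210 (1.72%) were higher and 166 (1.36%) lower in DKO. The median log2 fold change was 1.12 among the higher genes and -0.86 among the lower ones, beside 0.01 over all genes tested. Changes above 4-fold were found for 50 higher and 5 lower genes. Low levels were more common among the rises: 46 higher and 12 lower genes had a mean under 5 CPM in their higher group. The 2 groups did not overlap for any of the 376, nor for 43.8% of all genes tested. Replicate numbers were taken to pair the libraries, since deviations of same-numbered naive libraries correlated at 0.146 to 0.341. The reported fit held no block. When the replicate number entered the fit as a block, 599 genes were DE, among them 375 of the 376. With 1 of the 4 libraries left out, the count was 120 without SpiB KO replicate 1, 169 without SpiB KO replicate 2, 196 without DKO replicate 1 and 184 without DKO replicate 2. With 2 libraries per group an exact permutation test of a single gene cannot go below p = 0.333, so the calls rest on the spread shared across genes.

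**Figure D1:**
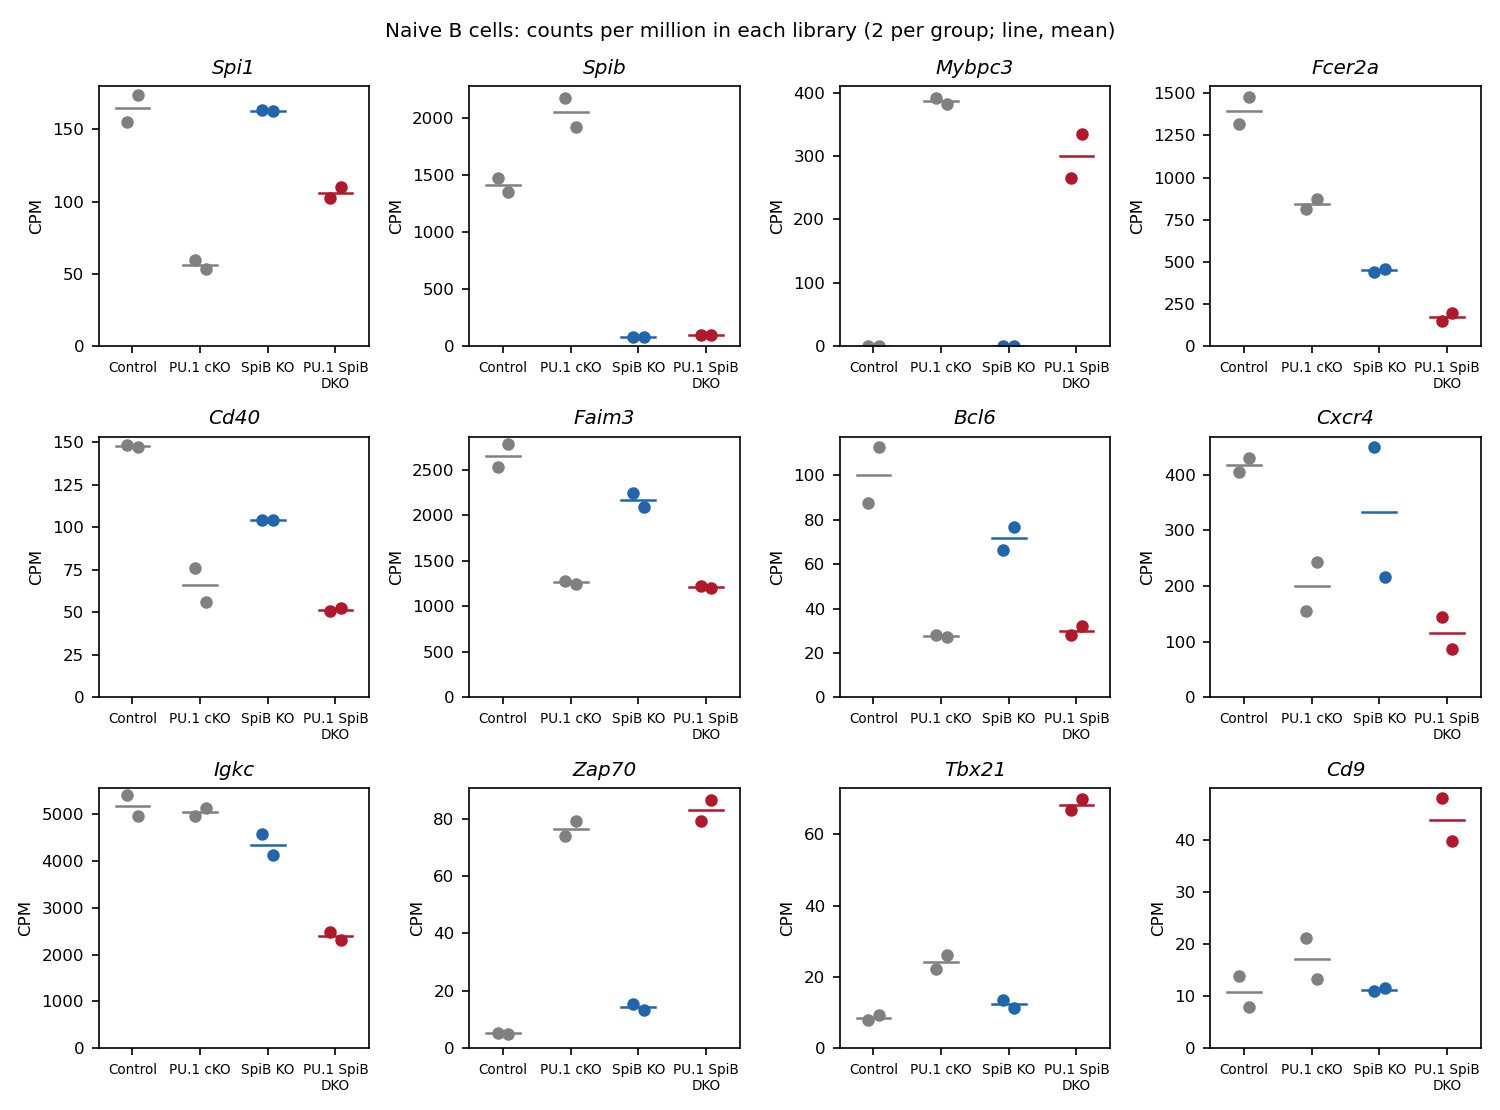
CPM, scaled by TMM, of 12 genes in the 8 naive libraries, as points for the libraries and lines for the group means (blue, SpiB KO; red, PU.1 SpiB DKO; grey, genotypes with Spib). Fcer2a, Cd40, Faim3, Bcl6, Cxcr4 and Igkc were lower in both DKO libraries than in either SpiB KO library, and Mybpc3, Zap70, Tbx21 and Cd9 were higher.

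Many of the lower genes lay in the immunoglobulin kappa light chain locus. In a B cell 1 V segment and 1 J segment of this locus are joined and spliced to the constant exon, and the kappa chain then pairs with the heavy chain in the B cell receptor. Of the 166 genes lower in DKO, 61 (36.7%) were kappa segments. The 12209 genes tested included 98 Igkv genes, 5 Igkj genes and Igkc. The kappa, lambda and heavy chain groups were formed after the values were seen. The constant gene Igkc (Entrez 16071, chromosome 6, 70726435 to 70726754) read 4567 and 4126 CPM in SpiB KO and 2485 and 2310 CPM in DKO. Both DKO libraries lay below both SpiB KO libraries, with a log2 fold change of -0.86 (standard error 0.12, adjusted p = 0.00708). It stayed DE with any 1 of the 4 libraries left out.

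V segments were lower as well. Of 98 Igkv genes tested, 56 were DE and lower, beside 1.36% of all genes, and none was DE and higher. A negative difference was found for 94, with a median log2 fold change of -0.75. Their summed level was 3473 and 3005 CPM in SpiB KO and 1903 and 1651 CPM in DKO. For 84 of the 98, both DKO values lay below both SpiB KO values. Over all genes tested, the 2 groups did not overlap, in either direction, for 43.8%. Igkv13-84 read 39.4 and 33.3 CPM in SpiB KO and 16.6 and 10.5 CPM in DKO (-1.43, adjusted p = 0.00888), Igkv6-32 fell from 109 and 93.8 CPM to 45.1 and 36.7 CPM (-1.31, adjusted p = 0.00576), and Igkv6-14 from 12.1 and 12.0 CPM to 5.22 and 4.52 CPM (-1.30, adjusted p = 0.00708). Along the locus, the median was -0.75 for the 33 V genes nearest to Igkc (22.9 to 826.0 kb away), -0.73 for the 33 next (868.0 to 1816.0 kb) and -0.84 for the 32 farthest (1864.2 to 3170.8 kb). Igkv genes are near-identical in places and only uniquely mapped reads were counted, so the value of any single V gene is uncertain. The count of 56 was 17 without SpiB KO replicate 1, 37 without SpiB KO replicate 2, 39 without DKO replicate 1 and 22 without DKO replicate 2, with medians between -0.93 and -0.67.

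The J segments, which every kappa transcript carries between V and C, are shown because each short segment was counted on its own. The sequences are GENCODE vM21 annotated segments on the plus strand of GRCm38 chromosome 6, written 5′ to 3′, and capitals mark the letters TTCGG followed by any 4 bases and GG, a stretch that spans the conserved phenylalanine and glycine codons of functional J segments.
Igkj1 (70722562 to 70722599): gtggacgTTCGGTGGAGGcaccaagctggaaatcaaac
Igkj2 (70722916 to 70722958): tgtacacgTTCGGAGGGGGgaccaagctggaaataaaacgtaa
Igkj4 (70723548 to 70723585): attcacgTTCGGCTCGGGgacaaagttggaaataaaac
Igkj5 (70723886 to 70723927): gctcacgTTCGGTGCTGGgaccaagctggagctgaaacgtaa
The log2 fold change was -0.65 for Igkj1, -0.92 for Igkj2, -0.66 for Igkj4 and -0.72 for Igkj5, and all 4 were DE. Igkj3, in which no such match was found, differed by -1.31 (standard error 0.41, adjusted p = 0.187) and was not DE.

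No heavy chain V or lambda segment was DE. None of the 92 Ighv genes was DE by edgeR, 4 of them had an unadjusted p below 0.05, and their median difference was -0.02 with sums of 881 and 968 CPM in SpiB KO and 871 and 876 CPM in DKO. None of the 4 Ighj, 3 Iglv, 3 Iglj and 3 Iglc genes was DE either. Ighm, the constant gene of IgM, read 6013 and 5946 CPM in SpiB KO and 5605 in both DKO libraries (-0.09, adjusted p = 0.822). Iglc2, a lambda constant gene, read 665 and 578 CPM in SpiB KO and 707 and 648 CPM in DKO (0.13, adjusted p = 0.841). Among the 7 heavy chain constant genes tested only Ighg2c, at 3.45 and 4.95 CPM in SpiB KO and 0.614 and 0.737 CPM in DKO, was DE.

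The kappa difference was then set beside the other comparisons. In PU.1 cKO against control, 1 of 98 Igkv genes was DE, beside 10.7% of all genes tested. The Igkv median there was -0.07, and Igkc differed by -0.04 (adjusted p = 0.878). The test of the difference between both naive comparisons (the interaction) passed for Igkc (-0.82, adjusted p = 0.111) and for 16 Igkv genes, all negative, beside 0.909% of all genes tested. These libraries are partly shared with DKO against SpiB KO. The 16 became 56 with the replicate block and 52 without control replicate 1, 13 without control replicate 2, 7 without DKO replicate 1, 4 without SpiB KO replicate 2, and 0 without any 1 of SpiB KO replicate 1, DKO replicate 2 and PU.1 cKO replicates 1 and 2. After activation the same DKO against SpiB KO contrast went the opposite way: 62 of 97 Igkv genes were DE and higher in CD40L + IL-4 (median 0.86) and 35 of 96 in LPS + IL-4 (median 0.52). Heavy chain V genes were higher there as well, 68 of 92 and 85 of 91. Of all genes tested, 1068 of 12298 were DE and higher in CD40L + IL-4 and 1025 of 12209 in LPS + IL-4. Igkc was DE and higher in CD40L + IL-4 (0.83), while its LPS + IL-4 difference was 0.35, below the fold limit. The difference between CD40L + IL-4 and naive cells was 1.68 for Igkc (adjusted p = 7.6e-05) and that between LPS + IL-4 and naive cells 1.17 (adjusted p = 0.00326).

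**Figure D2:**
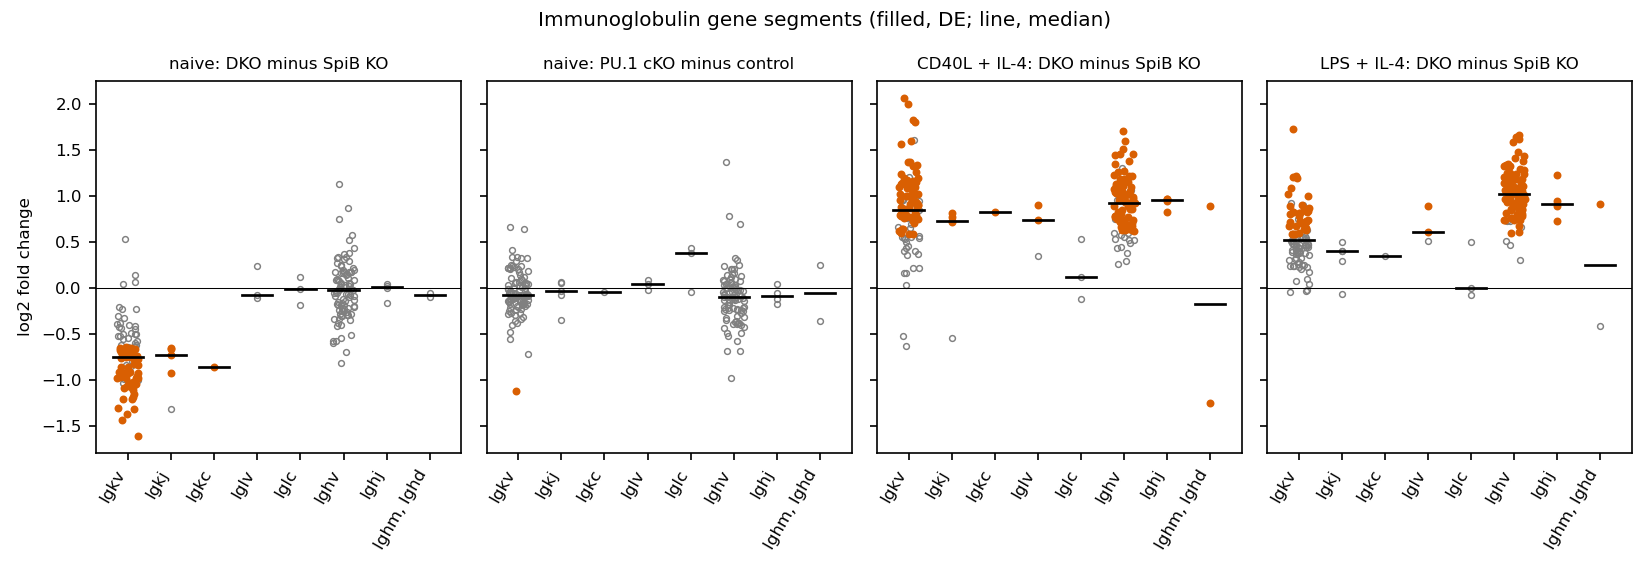
Log2 fold change of immunoglobulin segments in 4 comparisons, 1 point per gene (filled, DE; line, median of the class). In naive DKO against SpiB KO cells the kappa classes Igkv, Igkj and Igkc lie below 0 while the lambda and heavy chain classes are centred near 0, and after activation the Igkv and Ighv classes lie above 0.

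Fcer2a, which encodes CD23, the low-affinity IgE receptor whose regulatory sequences drive the Cre, read 438 and 460.2 CPM in SpiB KO and 153 and 197 CPM in DKO (-1.36, standard error 0.14, adjusted p = 0.00255). In control it read 1318 and 1476 CPM. Of 10 Fc receptor genes tested 3 were DE, all lower, beside 1.36% of all genes: Fcer2a, Faim3 and Fcrla. The other 7 did not pass. Faim3, the IgM Fc receptor, fell from 2243 and 2088 CPM to 1228 and 1199 CPM (-0.84, adjusted p = 0.00612), and Fcrla, an intracellular Fc receptor-like protein of B cells, from 850.3 and 833 CPM to 548 and 480.2 CPM (-0.71, adjusted p = 0.0188). The median of the list was 0.02. The call of Fcrla was lost without SpiB KO replicate 1 (adjusted p = 0.163).

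Cd40, the receptor for T cell help, read 104 CPM in both SpiB KO libraries and 50.5 and 52.6 CPM in DKO. The difference of -1.02 (standard error 0.14, adjusted p = 0.00708) exceeded the spread within either group, and Cd40 stayed DE with any library left out. It was the DE gene of 14 of the TNF receptor superfamily, beside 3.08% of all genes. Tnfrsf13c, which encodes the BAFF receptor that sustains mature B cell survival, read 411 and 431 CPM in SpiB KO and 272 and 313 CPM in DKO. Its difference of -0.53 (standard error 0.12, adjusted p = 0.0653) was under the fold limit, and it was called without DKO replicate 2 (-0.64, adjusted p = 0.133).

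Of 23 homing and adhesion genes, which place B cells in lymphoid tissue, 4 were DE, all lower, beside 1.36% of all genes, with a list median of -0.07. Ccr6, the receptor for CCL20, fell from 214 and 221 CPM to 126 and 147 CPM (-0.67, adjusted p = 0.0144), and P2ry10, a lysophospholipid receptor, from 503 and 449 CPM to 330.0 and 255 CPM (-0.70, adjusted p = 0.0366). Gpr183 (EBI2), the oxysterol receptor that guides B cells to the outer follicle, fell from 219 and 194 CPM to 156 and 107 CPM (-0.65, adjusted p = 0.0877). Cxcr4, the receptor for CXCL12, read 449 and 217 CPM in SpiB KO and 143 and 87.2 CPM in DKO (-1.53, adjusted p = 0.0637), with a wide gap between the SpiB KO libraries. With 1 library left out these values ranged from -0.79 to -0.56 for Ccr6, from -0.90 to -0.53 for P2ry10, from -0.95 to -0.41 for Gpr183 and from -1.96 to -0.91 for Cxcr4, and the largest adjusted p was 0.117, 0.282, 0.457 and 0.403. The call of Ccr6 was lost without DKO replicate 1, those of P2ry10 and Cxcr4 without SpiB KO replicate 1 or DKO replicate 2, and that of Gpr183 without either SpiB KO library or DKO replicate 2.

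Antigen presentation genes had mostly negative differences under the fold limit. Of 15 genes of the MHC class II list 14 had a negative difference and the median was -0.38. Only Cd86 was DE, beside 3.08% of all genes, and 4 passed the adjusted p alone. Cd86, a costimulatory ligand for T cells, read 29.6 and 39.8 CPM in SpiB KO and 18.2 and 19.1 CPM in DKO (-0.90, adjusted p = 0.0306), and it passed only without SpiB KO replicate 1 when a library was left out, with adjusted p up to 0.235. Cd74, the invariant chain, had -0.54 (adjusted p = 0.0803), H2-Ob -0.56 and H2-DMb2 -0.52, each under the fold limit.

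None of 30 genes of B cell receptor signal transduction was DE by edgeR, beside 3.08% of all genes. Of the 30, 22 had a negative difference and 4 passed the adjusted p alone, all negative, and the list median was -0.10. Btk, the Tec kinase downstream of the receptor, read 134 and 164 CPM in SpiB KO and 103 and 116 CPM in DKO (-0.44, standard error 0.15, adjusted p = 0.241). Rasgrp3, a Ras activator, read 132 and 156 CPM against 76.5 and 122 CPM (-0.53, standard error 0.21, adjusted p = 0.324), and was called without DKO replicate 2 (-0.91, adjusted p = 0.112). Of 12 genes of the receptor complex and its co-receptors 1 was DE, Siglecg, an inhibitory lectin, which fell from 140.3 and 127 CPM to 84.1 and 83.0 CPM (-0.68, adjusted p = 0.0221; 0.195 without SpiB KO replicate 1). Of 12 identity genes 1 was DE, Fcrla, and 9 had a negative difference. Ms4a1 passed the adjusted p but not the fold limit (-0.51, adjusted p = 0.0724). Pax5 (-0.11) and Ebf1 (0.03) did not pass.

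Innate sensing genes gave a similar picture. Of 21 genes of Toll-like receptor sensing 1 was DE, and the median was -0.12. Over all genes tested 3.08% were DE, a share that also applies to the cytokine receptor and interferon lists below. Irf5, a transcription factor downstream of these receptors, read 245 and 249 CPM in SpiB KO and 154 and 146 CPM in DKO (-0.72, adjusted p = 0.00655) and stayed DE with any library left out. Tlr9, the sensor of CpG DNA, read 322 and 350.5 CPM against 280.1 and 246 CPM (-0.35, adjusted p = 0.236), and Tlr4, the LPS receptor, 33.3 and 30.4 CPM against 31.0 and 30.3 CPM (-0.06, adjusted p = 0.92). Il10ra, a chain of the IL-10 receptor, was the DE gene among 23 cytokine receptors (-0.72, adjusted p = 0.0784), with adjusted p up to 0.361 when a library was left out. Oas1a, an antiviral enzyme, was the DE gene of 20 interferon-stimulated genes, whose median was -0.46 (-1.21, adjusted p = 0.0989; up to 0.484).

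Transcription factors moved in both directions. Of 25 B cell factors 3 were lower and 2 higher, beside 1.36% and 1.72% of all genes. Bcl6, the master regulator of germinal centre B cells, read 66.5 and 76.7 CPM in SpiB KO and 27.9 and 32.2 CPM in DKO (-1.25, standard error 0.15, adjusted p = 0.00496). Mef2c, a factor required for B cell proliferation after receptor ligation, fell from 564 and 629 CPM to 347 and 383 CPM (-0.71, adjusted p = 0.0144). Both stayed DE with any library left out. Rel, an NF-κB subunit, fell from 58.2 and 67.6 CPM to 33.0 and 38.3 CPM (-0.82, adjusted p = 0.0498). Id2, an inhibitor of E proteins, rose from 18.5 and 16.1 CPM to 40.2 and 33.8 CPM (1.10, adjusted p = 0.0297), and Bhlhe41, a transcription factor expressed in B-1 cells, from 12.9 and 15.6 CPM to 32.7 and 29.4 CPM (1.12, adjusted p = 0.0498). The calls of Rel, Id2 and Bhlhe41 were lost with single libraries left out, with adjusted p up to 0.307, 0.235 and 0.368. None of the 14 other ETS factors tested was DE by edgeR or passed the adjusted p alone (list median -0.19).

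Of 13 BCL2 family genes tested 3 were DE, beside 3.08% of all genes. Bmf, a BH3-only protein, read 71.8 and 71.7 CPM in SpiB KO and 28.2 and 41.8 CPM in DKO (-1.03, adjusted p = 0.0297), Pmaip1 (NOXA) 13.97 and 11.3 CPM against 5.22 and 6.63 CPM (-1.09, adjusted p = 0.0297), and Bbc3 (PUMA) 5.94 and 5.49 CPM against 9.40 and 10.05 CPM (0.77, adjusted p = 0.104). Their largest adjusted p with a library left out was 0.18, 0.24 and 0.469.

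The largest falls outside these groups included Wfdc17, a secreted whey acidic protein of myeloid cells (5.83 and 5.38 CPM to 1.11 and 0.631 CPM; -2.70, adjusted p = 0.0115), Nxpe2 (15.6 and 15.4 CPM to 4.18 and 5.10 CPM; -1.73, adjusted p = 0.00556), Map3k9, a mixed lineage kinase (17.1 and 18.8 CPM to 5.40 and 6.31 CPM; -1.61, adjusted p = 0.00556), and Rab39, a small GTPase (13.1 and 12.3 CPM to 4.30 and 4.47 CPM; -1.53, adjusted p = 0.0253). Rasgef1b, a guanine nucleotide exchange factor, fell from 115 and 116 CPM to 42.3 and 47.0 CPM (-1.37) and Kctd14 from 31.9 and 28.8 CPM to 13.3 and 11.9 CPM (-1.27). All 6 were also DE and lower in PU.1 cKO against control. Rab39 was lost without SpiB KO replicate 1 and without DKO replicate 1 (adjusted p up to 0.165).

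Of 19 immediate early and heat shock genes 3 were DE, all lower, beside 1.36% of all genes, and 18 had a negative difference (median -0.54). Hspa1b, an inducible HSP70, read 15.6 and 8.56 CPM in SpiB KO and 1.78 and 0.421 CPM in DKO (-3.49, standard error 0.95, adjusted p = 0.126), Hsph1, an HSP110, 71.2 and 124 CPM against 41.3 and 53.5 CPM (-1.04, adjusted p = 0.101), and Egr3, an early response factor, 68.2 and 91.2 CPM against 49.1 and 54.1 CPM (-0.63, adjusted p = 0.146). None of the 3 stayed DE with each library left out in turn (adjusted p up to 0.488, 0.539 and 0.613).

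The genes higher in DKO were led by genes that were close to absent in SpiB KO. Chl1, a neural adhesion molecule, had 0 counts in both SpiB KO libraries and 67 and 160 counts in DKO, which is at least 75.9-fold higher against a floor of 3 counts over the group. Sema3g, a secreted semaphorin, had 0 and 1 counts in SpiB KO and 129 and 149 in DKO, a ratio of 279 with an exact binomial 95% interval of 49.6 to 11054, which covers counting error only. Islr2 (0.357 and 0.323 CPM to 6.82 and 7.21 CPM), Styk1, a pseudokinase (1.25 and 0.700 CPM to 15.7 and 23.4 CPM), Ltbp4, a TGF-β binding protein (0.595 and 0.162 CPM to 7.001 and 6.73 CPM), and Ackr3, a scavenger receptor of CXCL12 (0.713 and 1.02 CPM to 8.60 and 7.47 CPM), rose by 4.34, 4.33, 4.19 and 3.19 on the log2 scale. Itga9, an integrin, rose from 1.31 and 1.35 CPM to 10.1 and 14.1 CPM (3.18), Dapk2, a death-associated kinase, from 0.951 and 0.862 CPM to 6.51 and 6.94 CPM (2.88) and Cplx2, a complexin of secretory vesicles, from 2.91 and 2.96 CPM to 11.2 and 18.5 CPM (2.34). Styk1, Ltbp4, Ackr3, Itga9, Dapk2 and Cplx2 passed with any library left out. Chl1, Sema3g and Islr2 reached the CPM limit only through the DKO libraries, so they were not tested without either DKO library. Their entry among the members therefore depended on the rise itself. In PU.1 cKO against control the differences were -1.92 for Chl1 and -0.24 for Styk1, neither DE, and -2.82 for Islr2, which was DE and lower.

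Zap70 and Tbx21 rose from a measurable level. Zap70, a kinase related to Syk that is best known from T cells, read 15.6 and 13.4 CPM in SpiB KO and 79.3 and 86.6 CPM in DKO (2.52, standard error 0.14, adjusted p = 5.45e-05). Tbx21 (T-bet), a transcription factor of T cells, NK cells and atypical memory B cells, read 13.7 and 11.4 CPM in SpiB KO and 66.8 and 69.9 CPM in DKO (2.45, standard error 0.16, adjusted p = 0.000217). Both were also higher in PU.1 cKO than in control (3.86 and 1.51). Lck, another kinase best known from T cells, read 63.8 and 62.6 CPM in SpiB KO and 125 and 124 CPM in DKO (0.98, adjusted p = 0.00279). It was the DE gene of 14 T cell genes tested, beside 3.08% of all genes. Of 10 NK cell genes Prf1 (perforin) was the DE gene, beside the same share (19.3 and 19.2 CPM to 35.6 and 34.6 CPM; 0.87, adjusted p = 0.136). The call of Prf1 was lost with any 1 library left out, where its difference was 0.85 to 0.88.

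Markers of other cell types were set beside these rises. The defining T cell genes Cd3d and Cd3g were at or below 1.23 CPM in all 4 libraries and did not differ (adjusted p = 0.945 and 0.746). The T cell list summed to 633 to 736 CPM in SpiB KO and 764 to 794 CPM in DKO, and the NK list to 454 to 660 CPM and 538 to 734 CPM. Plasmacytoid dendritic cells carry B220 and so could fall within the gate. Siglech, their defining lectin, read 237 and 200 CPM in SpiB KO and 267 and 229 CPM in DKO, against 57.2 and 23.9 CPM in control. None of the 14 plasmacytoid dendritic cell genes was DE by edgeR, and their sum was 4482 to 5459 CPM in SpiB KO and 4968 to 5598 CPM in DKO. Cd8a, which these dendritic cells can also express, read 231 and 175 CPM in SpiB KO and 265 and 233 CPM in DKO, the highest T cell list gene in DKO. The monocyte list summed to 804 to 1051 CPM in SpiB KO and 1117 to 1344 CPM in DKO, most of it from Ly6c2. None of the 9 monocyte, 7 conventional dendritic cell and 3 erythroid and platelet genes tested was DE by edgeR. Whether these transcripts came from other cells or from B cells cannot be told apart, and their part in the differences was not tested. No neutrophil gene reached the limit, and the highest count of any of the 10 was 5. In sorted bulk cells, fewer cells of a type and less RNA per cell cannot be told apart.

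Genes of marginal zone and B-1 cells were the list with the most higher members. Of 14 tested, 6 were DE and higher and none was lower, beside 1.72% of all genes, with a median of 0.63. This list, like the others, was chosen with earlier results of these data known, so the count is a description only. Cd9, a tetraspanin of marginal zone, B-1 and plasma cells, rose from 10.9 and 11.5 CPM to 47.9 and 39.8 CPM (1.97, standard error 0.28, adjusted p = 0.00845). Spn (CD43), a sialomucin that marks B-1 cells, rose from 68.4 and 61.3 CPM to 135 and 160.0 CPM (1.18, adjusted p = 0.00296). Dtx1 (Deltex), a target of Notch signalling, rose from 111 and 136 CPM to 237 and 266 CPM (1.03, adjusted p = 0.0637) and Myof, a ferlin, from 5.59 and 7.38 CPM to 10.3 and 16.9 CPM (1.07, adjusted p = 0.0963). Bhlhe41 is described above, and Asb2, which stayed under the 5 CPM used to name genes, had 1.88. The marginal zone receptors Cr2 (-0.15), Notch2 (-0.14) and Cd1d1 (0.21) and the B-1 marker Cd5 (0.23) did not pass. Cd9 and Spn stayed DE with any library left out, while Dtx1 and Myof reached adjusted p of 0.41 and 0.521.

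Of the 19 plasma cell genes tested 1 was DE, beside 3.08% of all genes, a share that also applies to the cell cycle list below. Cd93, a C-type lectin receptor of immature B cells and plasma cells, rose from 15.6 and 15.9 CPM to 49.8 and 54.2 CPM (1.72, standard error 0.17, adjusted p = 0.00206). The plasma cell regulators Prdm1 (0.68, adjusted p = 0.576) and Xbp1 (-0.18) did not pass, and the list median was 0.15. Among 26 cell cycle genes, Ccne1 (cyclin E1) was DE and higher, from 6.00 and 7.11 CPM to 12.1 and 11.2 CPM (0.82, adjusted p = 0.102, up to 0.517 with a library left out).

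Libraries also differed in sex-linked transcripts. Ddx3y, on the Y chromosome, was DE and lower in DKO (68.5 and 60.6 CPM to 22.2 and 40.5 CPM; -1.04, adjusted p = 0.136, up to 0.512), and Xist read 30.0 and 63.3 CPM in SpiB KO and 133 and 67.9 CPM in DKO (1.10, adjusted p = 0.28). All 4 naive libraries held both transcripts. In LPS + IL-4, replicate 1 of SpiB KO and DKO read 0.23 and 0.344 CPM for Ddx3y and 247 and 224 CPM for Xist. Replicate 2 read 72.5 and 73.3 CPM for Ddx3y and 0 CPM for Xist in both. Sex-linked transcripts there went with the replicate number, alike in both genotypes, and the reported fits held no block. The part of the sex of the donors in the other differences was not tested.

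PU.1 cKO against control shares no library with DKO against SpiB KO. Of the 376 DE genes 330 had the same sign there and 194 were DE (10.7% of all genes tested were), 192 in the same direction. The 192 made up 51.1% of the genes DE between DKO and SpiB KO and 14.8% of the 1301 genes DE in PU.1 cKO. Without the kappa segments 191 of 315 were DE in the same direction. Across all 12209 genes the log2 fold changes of both pairs had a Pearson correlation of 0.34, and across the 376 it was 0.67, given as a description since genes are not independent replicates. The count of 1301 was 2057 without control replicate 1 and 603 and 607 without PU.1 cKO replicates 1 and 2.

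**Figure D3:**
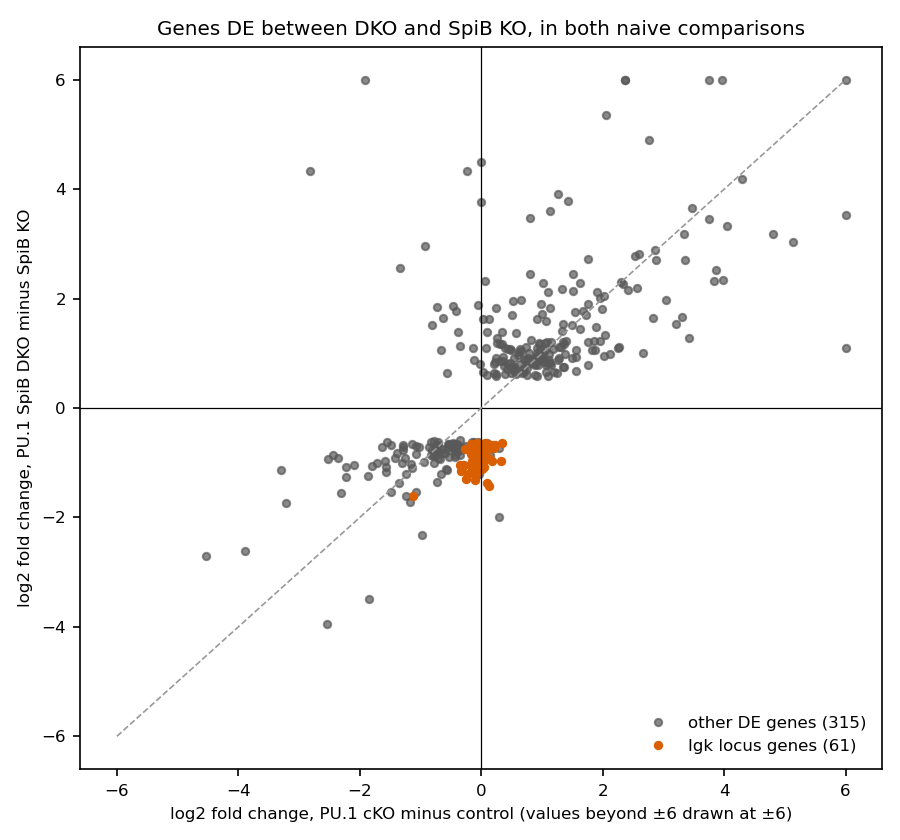
Log2 fold change of the 376 genes DE between naive DKO and SpiB KO cells (y axis) against their log2 fold change between PU.1 cKO and control (x axis), with the dashed line at equal values. Most genes lie at the lower left and the upper right, whereas the 61 kappa segments (orange) lie near 0 on the x axis and below 0 on the y axis.

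The interaction, the DKO against SpiB KO difference minus the PU.1 cKO against control difference, passed for 111 genes (0.909%), 54 positive and 57 negative. It does not isolate a dependence on SpiB, since Spi1 itself differed less in the former comparison. With the replicate block 1407 passed, 839 positive and 568 negative, and 1029 without control replicate 1, 744 positive and 285 negative. It was 208 without control replicate 2 and between 35 and 54 without any 1 of the other 6 naive libraries. The most positive at 5 CPM or more were Chl1, Islr2, Styk1 and I830127L07Rik (current symbol Ly6a2), whose difference between DKO and SpiB KO was 2.55 (1.01 and 0.915 CPM in SpiB KO to 7.19 and 4.21 CPM). Chl1 and Islr2 were members only through the DKO libraries. The most negative were H2-Ea-ps (-13.78), Gdpd3 (-8.70), H2-Q2 (-7.56) and Gm11127 (-7.07), none of which was DE between DKO and SpiB KO. H2-Ea-ps read 2529 and 2217 CPM in PU.1 cKO and below 1 CPM in the other 6 naive libraries. H2-Ea-ps, H2-Q2 and Gm11127 lie in or near the MHC on chromosome 17. Whether the PU.1 cKO mice differed from the others in genetic background was not tested. Zap70 had a negative interaction (-1.34, adjusted p = 0.0259) and Nxpe2 a positive one (1.48, adjusted p = 0.128).

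The same contrast in activated cells called more genes. Between DKO and SpiB KO, 1952 of 12298 genes (15.9%) were DE after CD40L + IL-4, and after LPS + IL-4 1555 of 12209 (12.7%) were. Of the naive DE genes 343 were tested in CD40L + IL-4, where 114 were DE in the same direction and 57 in the opposite one. After LPS + IL-4 346 were tested, of which 137 were DE in the same direction and 22 in the opposite one. Kappa segments made up 44 of the 57 and 15 of the 22. For Spi1 itself the log2 difference was -1.79 after CD40L + IL-4, and it was -0.37, under the fold limit, after LPS + IL-4. These are counts over the whole gene and do not measure deletion. From read coverage the study reports full loss of the floxed exon after CD40L + IL-4 and comparably efficient deletion after LPS + IL-4. The test of the difference from naive cells passed for 1389 of 13684 genes (10.2%) in CD40L + IL-4 and for 847 (6.19%) in LPS + IL-4, and for 2819 and 2034 with the replicate block. The CD40L + IL-4 libraries held 9598674 to 61640683 counts and the LPS + IL-4 libraries 22757630 to 73658850, so depth varied more there than in naive cells.

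The receptor and signalling lists were compared across states. The BCR signal transduction list had a median of -0.10 in naive cells, -0.87 in CD40L + IL-4 with 19 of 30 genes DE and lower, and -0.20 in LPS + IL-4 with 4. Of all genes tested, 884 of 12298 in CD40L + IL-4 and 530 of 12209 in LPS + IL-4 were DE and lower. The test of the difference between CD40L + IL-4 and naive cells passed for Btk (-0.84), Tlr9 (-2.01), Tlr4 (-0.78), Tnfrsf13c (-0.68), Siglecg (-2.33) and Ccr6 (-2.60), but not for Rasgrp3 (-0.71) or Cd40 (-0.56). The plasma cell list had a median of 0.15 in naive cells and of 1.53 and 0.94 after activation, with 16 and 15 genes DE and higher. Of all genes tested, 1068 of 12298 and 1025 of 12209 were DE and higher there. The marginal zone and B-1 list went from 0.63 in naive cells to 0.03 and -0.18.

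**Figure D4:**
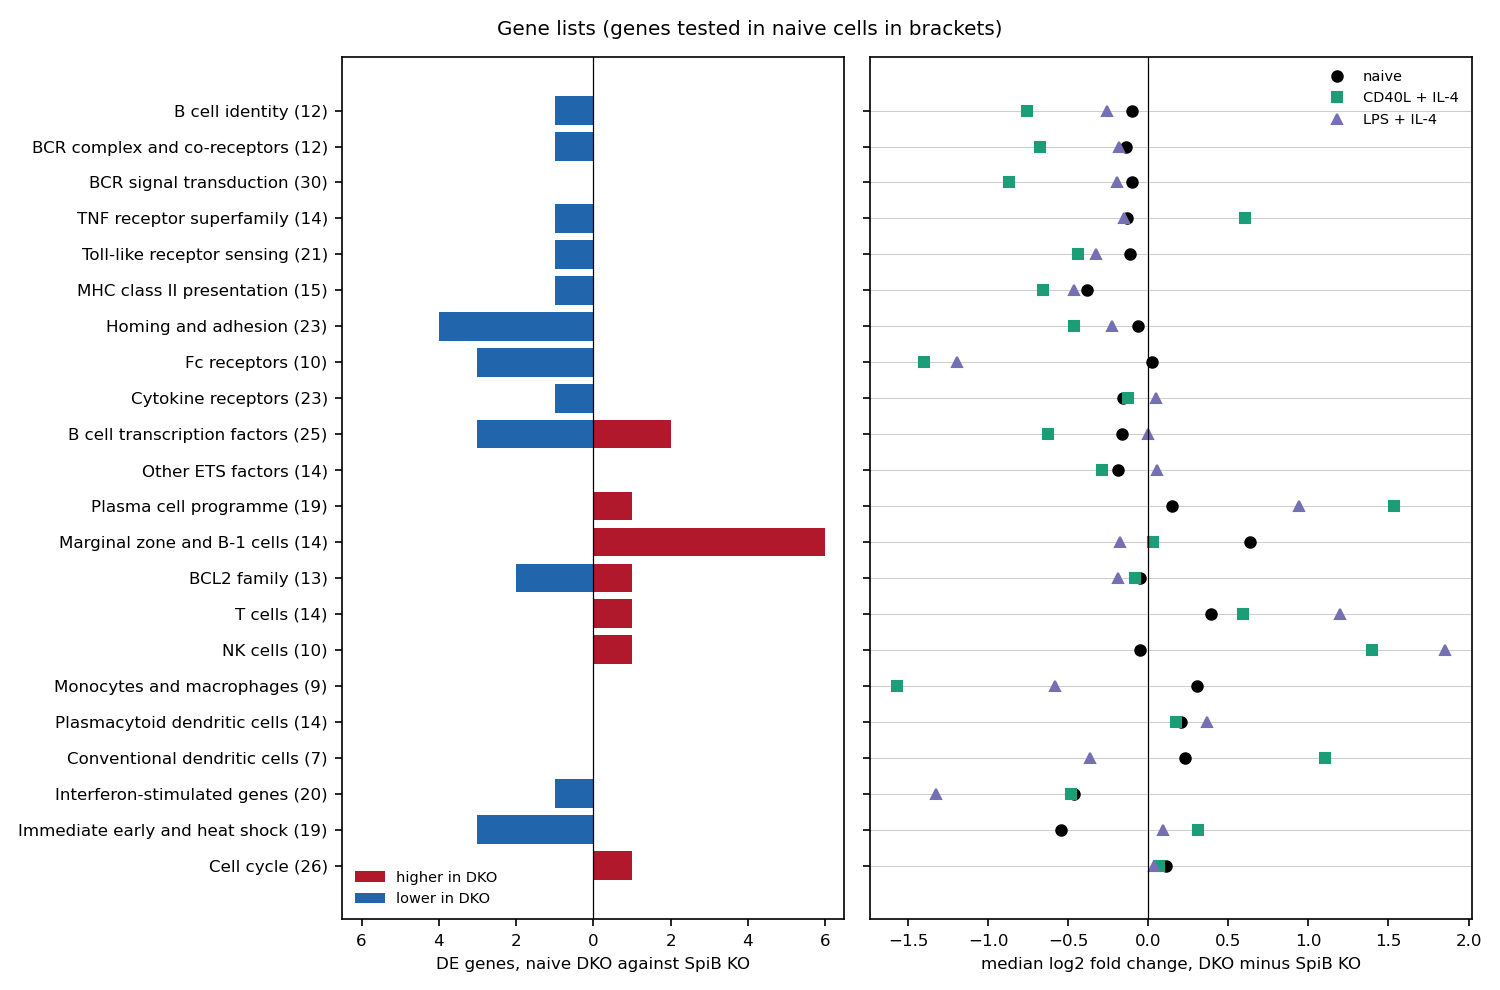
Left, number of DE genes per list, higher (red) or lower (blue) in naive DKO than in SpiB KO cells. Right, median log2 fold change of each list, DKO minus SpiB KO, in naive, CD40L + IL-4 and LPS + IL-4 cells. The marginal zone and B-1 list has 6 higher genes, and the BCR signal transduction list none, with its median at -0.10 in naive cells and -0.87 in CD40L + IL-4.

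Promoters were searched for letters that PU.1 prefers because Spi1 is the gene deleted. RefSeq promoters (GRCm38.p6, 250 bases before to 50 after the start) were matched for 9291 of the 12209 genes, and for none of the kappa or heavy chain V segments. GAGGAAGT, on either strand, was found for 370 (3.98%) of them, for 5 of 83 lower genes outside the kappa locus (6.02%) and for 3 of 168 higher genes (1.79%). GGAAGT, which GAGGAAGT contains, was found for 33.7%, 39.8% and 29.2%. Among the DE genes named above, P2ry10 and Rel held GAGGAAGT, and they are shown as examples of lower genes, with the match in capitals. They may not be the only named DE genes with a match, since not every named gene was covered. Rasgrp3 and Tlr9, which were not DE, held GAGGAAGT too.
P2ry10, chrX:107089083-107089382, plus strand: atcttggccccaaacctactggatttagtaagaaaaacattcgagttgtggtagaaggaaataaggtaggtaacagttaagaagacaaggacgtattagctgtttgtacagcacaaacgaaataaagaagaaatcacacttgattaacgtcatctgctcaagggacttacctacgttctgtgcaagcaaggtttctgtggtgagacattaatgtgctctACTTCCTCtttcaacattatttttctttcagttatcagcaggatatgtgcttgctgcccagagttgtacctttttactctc
Rel, chr11:23770920-23771219, minus strand: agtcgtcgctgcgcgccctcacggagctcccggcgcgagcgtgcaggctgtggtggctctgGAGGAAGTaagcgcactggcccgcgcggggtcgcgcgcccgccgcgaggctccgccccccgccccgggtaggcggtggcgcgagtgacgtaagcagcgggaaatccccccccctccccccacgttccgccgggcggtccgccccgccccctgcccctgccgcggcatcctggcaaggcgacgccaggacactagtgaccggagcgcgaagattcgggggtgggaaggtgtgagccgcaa
The match in P2ry10 lies 31 bases before the start site on the opposite strand and that in Rel 189 bases before it on the same strand as the gene. No binding was measured in these files, and the matches describe letters only.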

How the data were processed

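RNA-seq of lymph node B cells was analysed from tables of raw counts per gene that the authors deposited for 24 libraries. Per the study's methods and the labels, reads were aligned with Subread to GRCm38/mm10, uniquely mapped reads were kept and featureCounts counted them over RefSeq exons. The authors also deposited log2 RPKM values, quantile normalised with limma voom, which were used here only as a filter in one alternative and which hold no value for the 98 Igkv genes tested. One extraction label, shared by all samples, describes activated cells, and the naive state was taken from each sample's own labels.

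Genes at 0.5 CPM or more in 2 of the 4 compared libraries were kept, scaled by TMM and fitted over the 8 naive libraries with edgeR 4.0.16 (R 4.3.3) and its quasi-likelihood test, without a block. The same fit gave PU.1 cKO minus control and the interaction. Each activated state was fitted on its own 8 libraries and all 24 for the differences between states. DE meant a Benjamini-Hochberg adjusted p below 0.15 and a fold above 1.5, and the interaction and the differences between states were called on the adjusted p alone. CPM in the text are TMM-scaled. Entries without a symbol, 517 in all, held 0.124% of counts. Alternatives were DESeq2 1.42.0, limma 3.58.1 voom, other scaling, filters and thresholds, a replicate block and leaving out each library. The statistics were tested on simulated data.

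Replicate numbers come from the labels. Deviations from the group means correlated between same-numbered naive libraries of different genotypes at 0.146 to 0.341 in all 6 pairs, so the numbers were taken to pair the libraries. The study's methods call the replicates biological, and replicate libraries had correlations of 0.991 (SpiB KO) and 0.990 (DKO). The members and gene lists were chosen with earlier results of these data known. Genes were named where they were targeted (with Mybpc3 and Fcer2a), among the 12 largest rises or falls at 5 CPM or more without predicted genes, up to 6 DE genes per list, 6 genes the study names, or the 4 most positive and 4 most negative interactions. Immunoglobulin classes, Xist, Ddx3y and the list members given beside a test that did not pass were chosen after their values were seen. Some genes the study names are not reported here.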

Additional observations from a re-analysis of the deposited data

Results flagged for a closer look

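By the interaction term, the DKO against SpiB KO and PU.1 cKO against control differences were unequal for 14 named genes, beside 0.909% of all genes tested. These comparisons also differ in Cre and in how far Spi1 fell (-0.62 and -1.54). On the log2 scale the first was more positive for Spi1 (0.93), Chl1 (11.6), Islr2 (7.16), Styk1 (4.57), Nxpe2 (1.48) and I830127L07Rik (3.9). It was more negative for Zap70 (-1.34), Igkv13-84 (-1.55), Igkv6-32 (-1.2), H2-Ea-ps (-13.78), Gdpd3 (-8.7), H2-Q2 (-7.56), Gm11127 (-7.07) and Igkc (-0.82). The sizes for Chl1 (standard error 2.12) and Islr2 (0.94) rest on very low levels. Chl1 had 0 counts in both SpiB KO libraries, and Islr2 read 0 and 0.126 CPM in PU.1 cKO. Among the naive libraries H2-Ea-ps, H2-Q2 and Gm11127, in or near the MHC on chromosome 17, were high only in PU.1 cKO. Whether the PU.1 cKO mice differed from the others in genetic background was not tested. Gdpd3 read 148 and 141 CPM in PU.1 cKO and 0.42 and 0.142 CPM in control. It read 29.1 CPM in both SpiB KO libraries and 25.7 and 43.6 CPM in DKO.

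The DKO against SpiB KO difference differed between CD40L + IL-4 and naive cells for 29 named genes, beside 10.2% of all genes tested. The test of that difference came from the fit of all libraries. The DKO against SpiB KO difference was more positive after CD40L + IL-4 for Hspa1b (4.4), Igkv13-84 (1.59), Igkv6-32 (1.47), Igkv6-14 (1.79), Pmaip1 (0.95), Hsph1 (1.75), H2-Ea-ps (3.53), Ighm (0.98) and Igkc (1.68), and more negative for Spi1 (-1.18), Spib (-1.85), Sema3g (-6.65), Ackr3 (-2.53), Zap70 (-1.63), Nxpe2 (-2.15), Fcrla (-1.68), Siglecg (-2.33), Irf5 (-0.98), Ccr6 (-2.6), Faim3 (-1.59), Bhlhe41 (-2.56), Cd9 (-1.26), Dtx1 (-1.89), Lck (-0.98), Btk (-0.84), Tlr4 (-0.78), Tlr9 (-2.01), Tnfrsf13c (-0.68) and Gdpd3 (-6.07). Some of these rest on very low levels. After CD40L + IL-4 the highest SpiB KO or DKO value was 0.759 CPM for Sema3g, 0.433 for Gdpd3 and 1.52 for Hspa1b. H2-Ea-ps read 0.293 and 0.0865 CPM there in SpiB KO and 0.542 and 3.33 CPM in DKO. Sema3g and Gdpd3 were too low to be tested in that state alone. 

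Between LPS + IL-4 and naive cells the same difference changed for 24 named genes by the same test, beside 6.19% of all genes tested. It was more positive after LPS + IL-4 for Igkv13-84 (1.36), Igkv6-32 (1.31), Igkv6-14 (1.65), P2ry10 (0.64), Gpr183 (0.64), Bcl6 (1.36), Mef2c (0.82), Ighm (0.97) and Igkc (1.17), and more negative for Sema3g (-5.48), Ltbp4 (-4.1), Ackr3 (-3.86), Dapk2 (-2.8), Fcrla (-1.19), Siglecg (-1.03), Cd40 (-0.76), Irf5 (-0.8), Cd86 (-0.95), Ccr6 (-1.79), Cd9 (-1.45), Dtx1 (-1.28), Bbc3 (-1.07), Ccne1 (-0.81) and Tlr9 (-1.13). After LPS + IL-4 the highest SpiB KO or DKO value was 0.492 CPM for Ltbp4 and 1.64 CPM for Sema3g. 

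Most named genes were chosen by their naive DKO against SpiB KO difference, and some by the interaction. Those values enter these tests, so the counts of named genes do not show how common such differences are. Groups of 2 libraries were too small to be examined for single outlying libraries. The states were prepared and sequenced to different depths, and state and batch cannot be told apart.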

How the results depend on the processing

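The count of 376 DE genes was 615 with no filter on low counts, 599 with the replicate block (375 of the 376 shared) and 215 at an adjusted p below 0.05, and it ranged from 120 to 196 with 1 library left out. The 56 lower Igkv genes became 0 where a mean log2 RPKM above 0 was also required, since no Igkv gene has a deposited RPKM value, and 17 to 39 with 1 library left out. The interaction count of 111 was 429 with DESeq2, 1088 with no filter, 1407 with the replicate block, 37 at an adjusted p below 0.05, 323 with all 24 libraries in the fit and 35 to 1029 with 1 library left out, the highest without control replicate 1. Of these, 48.6% were positive in the reported fit, 67.1% with DESeq2, 73.3% with no filter, 59.6% with the block, 60.4% with all libraries and 72.3% without control replicate 1. PU.1 cKO against control gave 693 at an adjusted p below 0.05 and 603 to 2057 with 1 library left out. In activated cells, CD40L + IL-4 gave 1261 at an adjusted p below 0.05 and 1069 to 2510 with 1 library left out, and LPS + IL-4 gave 1024 with the RPKM requirement and 1111 to 1345. The differences between states gave, with the block, at an adjusted p below 0.05 and over single libraries left out, 2819, 699 and 755 to 2076 genes for CD40L + IL-4 and 2034, 377 and 350 to 644 for LPS + IL-4. With library totals in place of TMM, the first of these split into 511 higher and 971 lower genes, beside 658 and 731. The cause of these shifts was not tested.

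Of 57 named DE genes, 31 passed with any 1 of the 4 libraries left out, though Chl1, Islr2 and Sema3g among them could only be tested with both DKO libraries present. Pairing by the block lost none of the 57 and added Xist. Spi1, Hspa1b, Il10ra, Oas1a, Hsph1, Egr3 and Ddx3y were lost with library totals, Spi1, Hspa1b and Egr3 with voom, Bbc3 with DESeq2, Egr3 with upper-quartile scaling, and Fcrla, Faim3, Il10ra, Myof, Egr3 and Ddx3y with all 24 libraries in the fit. Only differences that were not DE changed sign. These were Tlr4 (0.011) and H2-Q2 (0.028) with library totals and, over single libraries left out, Tlr4 (-0.12 to 0.012), H2-Ea-ps (-0.87 to 0.31), Gdpd3 (-0.19 to 0.59) and H2-Q2 (-0.47 to 0.33).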
